A study of Mus musculus with 62 samples.

Results

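The genes described here encode 8 receptor chains for haematopoietic growth factors: Kit, Flt3, Csf1r, Csf3r, Csf2rb, Csf2rb2, Il6ra and Il6st. They were followed in CUT&Tag tables from mouse haematopoietic stem and progenitor cells (HSPCs) with and without Daxx, a histone chaperone that deposits the histone variant H3.3. CUT&Tag tethers a transposase to an antibody, so that DNA around a histone mark or a bound protein is tagged and sequenced. Every listed site that overlapped a receptor gene or the 20 kb on either side of it was taken, which gave 735 of 1743368 sites in 14 comparisons, and 24 of the 735 lay in the windows of both Csf2rb and Csf2rb2.

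HSPCs were lineage-negative, c-Kit+ bone-marrow cells enriched on magnetic beads, so the protein encoded by Kit, itself among the genes studied, was used to choose the cells. The groups were WT (Daxx +/+ Cre +/-), Daxx-KO (Daxx F/F Cre +/-) and DKO (both Daxx F/F and Pu.1 F/F, with Cre +/-) C57BL/6 mice, so the controls carried Cre as well. The labels give no ages. The study's methods describe Mx1-Cre induced with pI:pC, which acts in interferon-responsive cells, while the labels of these libraries do not name the Cre. Libraries for H3.3, Pu.1, H3K27ac and H3K9me3 were made at 3 weeks post induction (w.p.i.) and for the same targets and H3K27me3 at 24 w.p.i., with 2 Daxx-KO and 2 WT libraries per target. At 8 w.p.i. WT, Daxx-KO and DKO were compared for H3K9me3, and DKO with both other groups for H3K27me3, with 3 libraries per group.

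Kit and Flt3 are receptor tyrosine kinases for stem cell factor and FLT3 ligand, and both are hallmarks of early progenitors. Csf1r is the receptor tyrosine kinase for M-CSF and IL-34 and marks the monocyte lineage. Csf3r is the G-CSF receptor of the neutrophil lineage. Csf2rb is the beta chain shared by the receptors for GM-CSF, IL-3 and IL-5, and Csf2rb2 is its mouse-specific paralogue dedicated to IL-3. Il6ra binds IL-6, and Il6st (gp130) is the signalling chain that the whole IL-6 family shares. Pu.1, an ETS transcription factor encoded by Spi1, is a known regulator of several of these genes, among them Csf1r and Csf3r. H3K27ac marks active promoters and enhancers, H3K27me3 marks Polycomb-repressed chromatin, and H3K9me3 marks heterochromatin.

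The starts of the 6 receptor genes matched in RefSeq differed in CpG content. The 250 bases upstream of the start held 3 CpG in Csf2rb2, 6 in Csf3r, 13 in Flt3, 17 in Kit, 18 in Il6ra and 26 in Il6st, against a median of 6 and quartiles of 2 and 16 over 32851 promoters. Il6st, Il6ra and Kit were thus above the upper quartile and Csf3r at the median. The bases before the first exon are shown for 4 genes whose start regions carried listed changes of H3K27ac or H3K27me3, with each CpG in capitals (GRCm38.p6, RefSeq). They are chr13:112463820-112464069 (+) for Il6st, chr5:75574737-75574915 (+) for Kit, chr5:147400490-147400739 (-) for Flt3 and chr4:126024409-126024549 (+) for Csf3r.
Il6st: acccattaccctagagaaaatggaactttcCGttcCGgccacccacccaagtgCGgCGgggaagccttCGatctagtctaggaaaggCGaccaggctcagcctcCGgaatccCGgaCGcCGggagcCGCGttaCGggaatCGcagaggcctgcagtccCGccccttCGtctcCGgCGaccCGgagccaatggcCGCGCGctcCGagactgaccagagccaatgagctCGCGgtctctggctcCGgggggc
Kit: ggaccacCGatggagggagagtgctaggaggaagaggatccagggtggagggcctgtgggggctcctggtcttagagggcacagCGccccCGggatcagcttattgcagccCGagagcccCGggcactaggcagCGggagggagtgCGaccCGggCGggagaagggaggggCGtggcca
Flt3: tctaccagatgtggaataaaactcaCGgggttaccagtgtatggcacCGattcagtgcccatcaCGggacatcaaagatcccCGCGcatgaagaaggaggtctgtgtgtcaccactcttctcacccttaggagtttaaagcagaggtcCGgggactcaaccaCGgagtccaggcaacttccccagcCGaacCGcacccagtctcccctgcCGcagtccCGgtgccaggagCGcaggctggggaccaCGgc
Csf3r: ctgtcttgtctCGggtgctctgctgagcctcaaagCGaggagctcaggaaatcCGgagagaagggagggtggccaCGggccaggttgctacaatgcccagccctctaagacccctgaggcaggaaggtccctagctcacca

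Listed sites that changed in Pu.1 CUT&Tag signal at these genes held the Pu.1 motif GAGGAAGT, searched on both strands, in 19 cases. At 3 w.p.i. the motif lay in 12.5% (6 of 48) of the gained and 7.69% (2 of 26) of the lost receptor sites, against 5.36% and 6.05% of all gained and lost sites. At 24 w.p.i. the shares were 15.2% (7 of 46) and 8.89% (4 of 45), against 5.58% and 5.93%. Within the middle 300 bp of the sites the 4 shares were 8.33%, 0%, 2.17% and 2.22%, against 1.81%, 2.43%, 2.04% and 2.13% of all sites, so at 24 w.p.i. the receptor sites were near the background there. Shown with the motif in capitals are the gained site upstream of Csf3r, which held it at 2 places (chr4:126017493-126017552 and chr4:126018105-126018164, +), a lost and a gained site in intron 1 of Kit (chr5:75579233-75579292 and chr5:75582125-75582184, +), a gained site in intron 9 of Flt3 (chr5:147363192-147363251, +) and the last exons of Csf2rb (chr15:78348866-78348925, +) and Csf2rb2 (chr15:78284523-78284582, -). The last 2 sequences are identical over all 60 bases, and reads that do not reach a base that differs between these paralogues cannot be assigned to either.
Csf3r first: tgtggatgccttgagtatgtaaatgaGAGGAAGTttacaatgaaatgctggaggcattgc
Csf3r second: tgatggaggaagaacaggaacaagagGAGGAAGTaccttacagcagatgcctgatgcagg
Kit lost: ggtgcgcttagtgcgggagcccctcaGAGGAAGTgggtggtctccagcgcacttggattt
Kit gained: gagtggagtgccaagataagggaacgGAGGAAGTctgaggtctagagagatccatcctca
Flt3 gained: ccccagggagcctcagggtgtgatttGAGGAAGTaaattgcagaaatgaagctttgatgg
Csf2rb and Csf2rb2 gained: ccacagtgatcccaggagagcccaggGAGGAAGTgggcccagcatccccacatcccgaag

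A value below is the normalized count of a site in a library, that is its reads divided by the library's constant. A listed site had passed the authors' test between the groups, so a region with no listed site has no value here. A site is called gained where the first-named group of a comparison had the higher mean and lost where it had the lower. Libraries averaged between 0.2 and 33.78 reads per 600-bp window. The WT libraries for H3.3 and Pu.1 at 3 w.p.i. stood apart, with means of 22.88 and 3.06 reads for H3.3 and 33.78 and 2.75 for Pu.1. Signal over Daxx, as a check of the labels, went both ways at different stretches. At 24 w.p.i. H3K27ac over the gene (chr17:33909801-33913400) was 113 and 93.7 in Daxx-KO against 858 and 368 in WT, while flanking sites were higher in Daxx-KO, with 1570 and 1036 against 775 and 581 (chr17:33908401-33909500) and 1875 and 1617 against 712 and 914 (chr17:33914651-33916950). At 3 w.p.i. 1 H3K27ac site there was lost (chr17:33909601-33911450, 24.2 and 13.6 against 65.6 and 104.8) and 1 was gained, and at 8 w.p.i. none was listed over Daxx or Spi1, so the labels of that time were not checked. In bulk nuclei, fewer cells of a type and less signal per cell cannot be told apart. Scaled to equal mean reads per window, Daxx-KO values change relative to WT by 0.57 (log2) for H3K27ac and 0.37 for H3K27me3 at 24 w.p.i. At 3 w.p.i. the change is 0.61 for H3.3, 0.50 for Pu.1 and 0.27 for H3K27ac. DKO values for H3K9me3 at 8 w.p.i. change by -0.91 relative to WT and -0.73 relative to Daxx-KO. For H3K27me3 these changes are -0.28 and -0.34. The remaining comparisons change by between -0.24 and 0.18. This scaling turned 2 of the 176 receptor sites for H3K27ac and 1 of the 79 for H3K27me3 at 24 w.p.i. from lost to gained and none of the others.

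Across the 8 genes, the share of gained sites stood above that of all listed sites for H3K27ac at 3 w.p.i. and for H3K9me3 at 24 w.p.i. and was close to it for most other targets. For H3K9me3 at 24 w.p.i. this also held for the lists of other pathway genes given below. At 3 w.p.i. 52 of 85 H3K27ac sites were gained (61.2%), with a genome-wide share of 41.5%, and Flt3 alone gave 24 of the 52. For H3.3 46 of 69 sites were gained (66.7%, all sites 59.4%) and for Pu.1 48 of 74 (64.9%, all sites 56%). At 24 w.p.i. the gained share was 42% for H3K27ac (74 of 176, all sites 42.5%), 58.3% for H3.3 (56 of 96, all sites 52.6%) and 50.5% for Pu.1 (46 of 91, all sites 48.2%). H3K27me3 was gained at 25 of 79 sites (31.6%, all sites 41.2%) and H3K9me3 at 27 of 36 (75%, all sites 48.1%). The 95% Wilson intervals, which cover counting error only and treat neighbouring sites as independent, left out the genome-wide share for H3K27ac at 3 w.p.i. (50.5 to 70.8%), for H3K9me3 at 24 w.p.i. (58.9 to 86.2%) and for H3K27me3 between DKO and Daxx-KO (15.2 to 64.6%). They are no test, since the sites had been listed on these same libraries. The H3K27ac interval also leans on Flt3, which had 24 of its 27 sites gained.

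**Figure D1:**
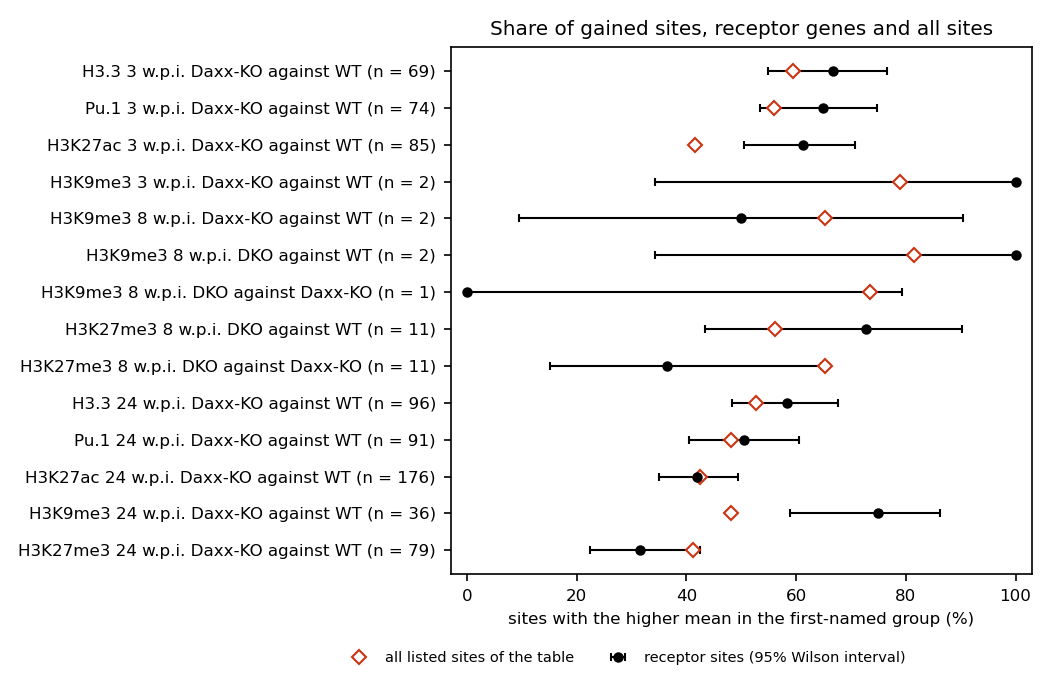
Share of listed sites with the higher mean in the first-named group (x axis, %) for the receptor genes (black points with 95% Wilson intervals, n sites) and for all listed sites of the same comparison (open diamonds). For H3K27ac at 3 w.p.i. the receptor share of 61.2% lies above the 41.5% of all sites, while at 24 w.p.i. 42% and 42.5% nearly coincide.

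Libraries did not overlap between groups at 97.2 to 99.6% of all listed sites at 3 and 24 w.p.i. and at 65.7 to 89.6% at 8 w.p.i., so separation of the libraries at a listed site is the rule in these tables. An exact permutation test of a single site cannot go below p = 0.333 with 2 against 2 libraries or 0.100 with 3 against 3. limma across all listed sites of each table was therefore used, with the limit that the sites had been listed on the same libraries and that its adjusted p is no independent evidence. At an adjusted p under 0.05, limma called 63 of the 85 receptor sites for H3K27ac at 3 w.p.i. (81.9% of all sites) and 0 for H3.3 and Pu.1 at 3 w.p.i., where it called 0% of all sites and 49.4% and 53.5% of them had an unadjusted p under 0.05. At 24 w.p.i. it called 37 of 96 receptor sites for H3.3 (36.5% of all), 42 of 91 for Pu.1 (36.9%), 92 of 176 for H3K27ac (58.2%), 14 of 36 for H3K9me3 (31%) and 75 of 79 for H3K27me3 (89.8%).

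**Figure D2:**
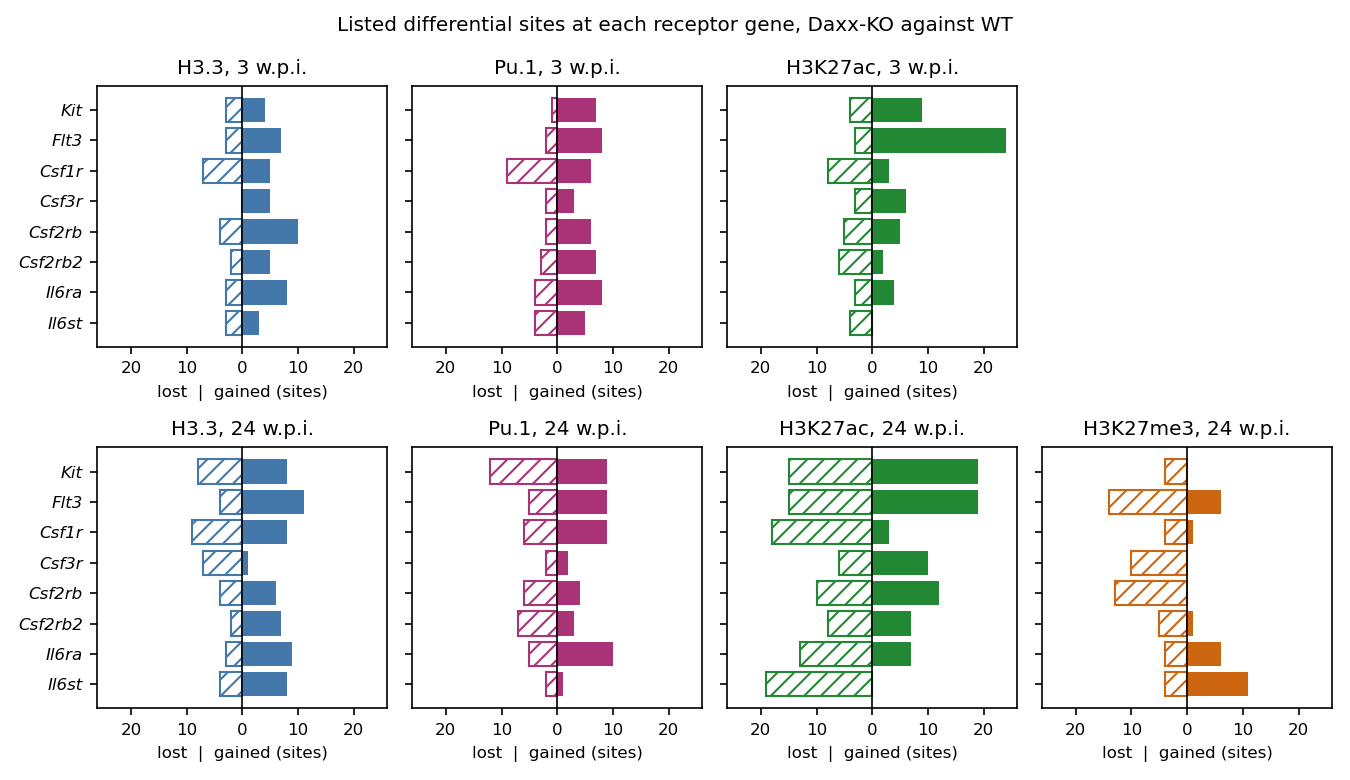
Number of listed sites gained (filled bars, right of 0) and lost (hatched bars, left of 0) at each receptor gene in Daxx-KO against WT, by target and time. Flt3 had 24 gained and 3 lost H3K27ac sites at 3 w.p.i., and Il6st had none gained and 19 lost at 24 w.p.i.

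Kit, the stem cell factor receptor by which the cells were enriched, lost H3K27me3 at its start at 24 w.p.i. and had more H3K27ac there. A single H3K27me3 site of 8900 bp (chr5:75572801-75581700) covered the promoter and the first part of intron 1. It held 240.1 and 279.7 in the Daxx-KO libraries against 1232 and 1466 in WT, a log2 ratio of -2.38 (limma adjusted p = 0.0208). Daxx-KO libraries were thus far below both WT libraries, and all 4 H3K27me3 sites of the gene were lost, with log2 ratios from -2.52 to -1.18 (pseudocount 1). The start of Kit also carried an H3K27ac site (chr5:75574551-75576150) with 500.5 and 584 in Daxx-KO against 407.7 and 171.7 in WT. The groups did not overlap, the log2 ratio was 0.90, and limma gave an adjusted p of 0.0612. Over the whole gene H3K27ac was split, with 19 sites gained and 15 lost.

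At 3 w.p.i. the Kit start showed more H3.3 in Daxx-KO (chr5:75574251-75575400), with 101.1 and 107.6 against 48.4 and 52.4, a log2 ratio of 1.05 (limma adjusted p = 0.101). H3K27ac over a shorter stretch of the start (chr5:75574351-75574950) was 7.75 and 7.65 in Daxx-KO against 6.45 and 50.8 in WT. There the groups overlapped, and the direction rested on WT replicate 2: without it the log2 ratio turned from -1.89 to 0.26. The largest H3K27ac difference lay downstream of the gene (chr5:75671201-75672100), with 108.5 and 68 against 30.1 and 41.9 (log2 ratio 1.29, limma adjusted p = 0.0338). In all, 9 of 13 H3K27ac sites (all sites 41.5%) and 7 of 8 Pu.1 sites (all sites 56%) of Kit were gained at 3 w.p.i.

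Pu.1 sites of Kit at 24 w.p.i. went both ways, 9 gained and 12 lost. Within intron 1, the lost site shown above (chr5:75579101-75580450) had 15.7 and 38.7 in Daxx-KO against 204 and 75.8 in WT, a log2 ratio of -2.37 (limma adjusted p = 0.0467). About 1 kb further on, the gained site (chr5:75581501-75582450) had 51.8 and 246 against 0 and 4.21, a log2 ratio of 6.14 (limma adjusted p = 0.0337). Both directions thus occurred within the same intron, and both of these sites overlapped the H3K27me3 site that was lost at the start. Upstream of the gene (chr5:75555951-75557100) Pu.1 was 0 and 6.27 against 115 and 58.9, a log2 ratio of -4.80 (limma adjusted p = 0.0422). H3.3 differed most in intron 7 at 24 w.p.i. (chr5:75628451-75629600), with 168.9 and 147.1 in Daxx-KO against 5.53 and 38.5 in WT (log2 ratio 2.84, limma adjusted p = 0.0361).

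Flt3, the FLT3 ligand receptor, had the most gained H3K27ac sites of the 8 genes at 3 w.p.i., with 24 of 27 gained. Of all listed sites 41.5% were gained. limma called 22 of the 24, and 81.9% of all sites. The gained Flt3 sites ran from 21.1 kb upstream of the start to 79 kb downstream of it, with log2 ratios between 0.99 and 3.07 (pseudocount 1). Just inside the gene (chr5:147399351-147400000) H3K27ac was 59.1 and 36.5 in Daxx-KO against 8.6 and 13.2 in WT, a log2 ratio of 2.13 (limma adjusted p = 0.0192). The largest difference was in intron 1 (chr5:147392451-147395950), with 297 and 535 against 177 and 167, a log2 ratio of 1.27 (limma adjusted p = 0.0279). At both sites each Daxx-KO library exceeded both WT libraries.

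At 24 w.p.i. Flt3 had 19 gained and 15 lost H3K27ac sites. The first 2 kb of the gene held more (chr5:147398401-147400450), with 632 and 499 in Daxx-KO against 145 and 188 in WT (log2 ratio 1.76, limma adjusted p = 0.0324). Immediately upstream of it (chr5:147400451-147401500) there was less, with 81.7 and 89.3 against 195.5 and 114.7 (log2 ratio -0.86, limma adjusted p = 0.0758), and scaling to equal mean reads left a log2 ratio of -0.28. Sites of the 2 times met in 25 overlapping pairs, of which 16 were gained at both, 8 were gained and then lost, and 1 was lost and then gained. For all 8 genes 30 of 54 such pairs (55.6%) kept their direction, against 59.8% of all pairs in the genome. The mice of the 2 times were different.

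**Figure D3:**
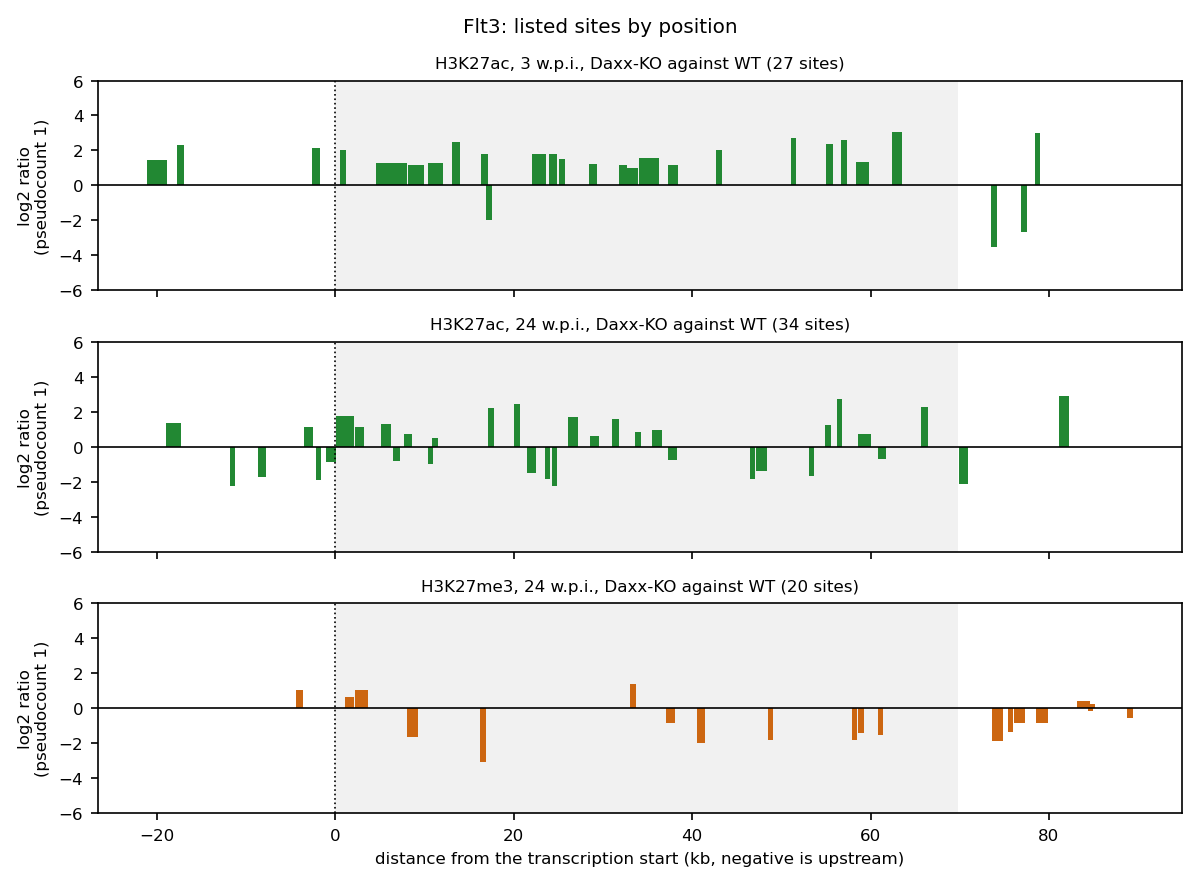
Listed H3K27ac and H3K27me3 sites of Flt3 in Daxx-KO against WT, by distance from the transcription start (x axis, kb, shaded over the gene) and log2 ratio of the group means with a pseudocount of 1 (y axis). H3K27ac gains run through the gene at 3 w.p.i. (24 of 27 sites), while at 24 w.p.i. gains and losses alternate (19 and 15).

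Pu.1 signal near the Flt3 start differed between the times. At 3 w.p.i. it was 171.7 and 179.2 in Daxx-KO against 55.4 and 70.3 in WT about 3 kb upstream (chr5:147403401-147404850), a log2 ratio of 1.48 (limma adjusted p = 0.0881). At 24 w.p.i. an overlapping site (chr5:147402901-147404200) had 34.8 and 0 against 124 and 118, a log2 ratio of -2.80 (limma adjusted p = 0.0657). Over the first part of intron 1 (chr5:147398151-147399150) Pu.1 at 24 w.p.i. was 86.6 and 50.2 in Daxx-KO and 0 in both WT libraries, which is at least 18.3-fold higher when WT is set at 3 reads per library (limma adjusted p = 0.000373). This site overlaps the H3K27ac site at the start that was gained at the same time and another gained H3K27ac site beside it. In intron 9 (chr5:147362651-147363300), where the motif is shown above, Pu.1 was 31.4 and 46 against 0 and 1.05 (log2 ratio 6.20, limma adjusted p = 0.000963). H3.3 in intron 1 (chr5:147390901-147391850) was 141 and 77 against 1.84 and 0 at 24 w.p.i. (limma adjusted p = 0.0182), while just upstream of the start (chr5:147401201-147401800) it was 0 in both Daxx-KO libraries against 33.2 and 30.1 (at least 9.44-fold lower, limma adjusted p = 7.83e-06).

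H3K9me3 was listed at the same place upstream of Flt3 in 3 comparisons, about 11 kb from the start, and repeats cover 53 to 61.6% of these sites. At 3 w.p.i. (chr5:147411301-147412050) the Daxx-KO libraries held 9.3 and 13.3 against 0 and 1.16 in WT (log2 ratio 4.29, limma adjusted p = 0.00494). At 8 w.p.i. (chr5:147411251-147412300) the values were 21.7, 11 and 16 in Daxx-KO against 3.16, 3.37 and 0 in WT (log2 ratio 2.90, limma adjusted p = 0.00944). DKO libraries had no read at the site in the comparison with Daxx-KO (chr5:147411501-147412250), where Daxx-KO had 9.43, 5.99 and 6.15. DKO libraries 1 and 2 were shallow, with 0.69 and 0.2 reads per window, and 3 reads there correspond to 6.11, 9.81 and 2.19 in the 3 DKO libraries, so the difference from Daxx-KO is at least 1.19-fold on average. The 2 comparisons at 8 w.p.i. share their Daxx-KO libraries. At 24 w.p.i. no H3K9me3 site was listed there. H3K27me3 downstream of the gene was lower in DKO than in WT at 8 w.p.i. (chr5:147312601-147313400), with 91.7, 49.8 and 66.5 against 126, 123 and 131 (log2 ratio -0.87, limma adjusted p = 0.0188), and beside the Daxx-KO libraries of the other comparison DKO had 100.5, 57.3 and 69.5 against 127, 121 and 119 (chr5:147312701-147313400, limma adjusted p = 0.0603).

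Csf1r, the M-CSF receptor, had mostly lost H3K27ac sites. At 3 w.p.i. 8 of 11 were lost, where 41.5% of all sites were gained. At 24 w.p.i. 18 of 21 were lost (17 of 21 with libraries at equal mean reads), where 42.5% of all sites were gained. The Csf1r site with the largest difference covered the start (chr18:61105551-61108450), with 1245 and 1338 in Daxx-KO against 1796 and 1903 in WT at 24 w.p.i. (log2 ratio -0.52, limma adjusted p = 0.0387). The libraries did not overlap, but with libraries scaled to equal mean reads the log2 ratio was 0.048, so the direction depends on the scaling. At 3 w.p.i. a site in intron 2 (chr18:61107251-61107900), inside that stretch, had 119 and 90.9 against 54.8 and 54.1 (log2 ratio 0.95, limma adjusted p = 0.0429).

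H3.3 behind the Csf1r start also differed between the times. At 3 w.p.i. it was 27.6 and 55.3 in Daxx-KO against 125 and 147 in WT (chr18:61105901-61107300, log2 ratio -1.71, limma adjusted p = 0.101). Nearly the same stretch at 24 w.p.i. (chr18:61105951-61107100) had 42 and 136 against 15.7 and 16.9 (log2 ratio 2.45, limma adjusted p = 0.064). Neither passed limma's threshold. H3K27me3 was low at the start and lost (chr18:61105751-61106500), with 16.8 and 11 against 63.5 and 27.1 at 24 w.p.i. (log2 ratio -1.71, limma adjusted p = 0.0317). A broader H3K27me3 site lay 13 kb upstream (chr18:61089251-61092400), with 72.6 and 99.4 against 252 and 357 (log2 ratio -1.82, limma adjusted p = 0.0208).

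Overlapping that upstream stretch, 2 Pu.1 sites with the motif went opposite ways at 24 w.p.i. One (chr18:61090801-61091500) had 48.4 and 39.7 in Daxx-KO against 14.4 and 22.1 in WT (log2 ratio 1.27, limma adjusted p = 0.143), and the other (chr18:61091851-61092600) had 2.04 and 3.13 against 31.7 and 48.4 (log2 ratio -3.95, limma adjusted p = 0.0409). Over the last exons of the gene (chr18:61129901-61131050) Pu.1 was 217 and 123 against 33.1 and 55.8 (log2 ratio 1.94, limma adjusted p = 0.038). Csf1r was the only one of the 8 genes with more lost than gained Pu.1 sites at 3 w.p.i. (6 gained, 9 lost), a count for which no test was made, and at 24 w.p.i. it had 9 gained and 6 lost.

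Csf3r, the G-CSF receptor, lost H3K27me3 at all 10 of its listed sites at 24 w.p.i., with log2 ratios from -2.47 to -1.17 (pseudocount 1). Of all listed H3K27me3 sites 41.2% were gained. Each of the 10 was called by limma, as were 89.8% of all sites. The Csf3r start (chr4:126024151-126025350) had 53.5 and 41.4 in Daxx-KO against 97.1 and 118.5 in WT (log2 ratio -1.18, limma adjusted p = 0.0219). At 8 w.p.i. the start (chr4:126024651-126025400) also held less H3K27me3 in DKO than in Daxx-KO, with 6.28, 2.01 and 1.24 against 27.2, 10.9 and 10.5 (log2 ratio -2.35, limma adjusted p = 0.0216). In both comparisons the groups did not overlap, though the second rests on few reads.

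H3K27ac at Csf3r moved in different places at the 2 times. At 3 w.p.i. it was higher just behind the start (chr4:126024751-126025650), with 83.3 and 67.1 in Daxx-KO against 21.5 and 24.3 in WT (log2 ratio 1.72, limma adjusted p = 0.0129), and over exon 2 (chr4:126025801-126026950), with 106.6 and 34 against 10.8 and 19.9 (log2 ratio 2.20, limma adjusted p = 0.0321). At 24 w.p.i. the site next to the start on its upstream side (chr4:126022701-126024150) had less, 542 and 489 against 683 and 906 (log2 ratio -0.62, limma adjusted p = 0.0496), which shrank to -0.055 with libraries at equal mean reads. A broad upstream site of 4100 bp (chr4:126014451-126018550) had more, with 2840 and 3716 against 1703 and 2312 (log2 ratio 0.71, limma adjusted p = 0.0406). None of the 4 pairs of overlapping H3K27ac sites of the 2 times kept its direction. At 24 w.p.i. all 4 overlaps of an H3K27ac and an H3K27me3 site at Csf3r were gained for H3K27ac and lost for H3K27me3, against 27 of 49 in opposite directions over the 8 genes (52.9% of all pairs in the genome). The libraries of both marks came from the same mice.

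The broad upstream H3K27ac site of Csf3r contains the Pu.1 site with 2 motifs shown above (chr4:126017051-126018200), which had 60 and 113 in Daxx-KO against 0 and 12.6 in WT at 24 w.p.i. (log2 ratio 3.77, limma adjusted p = 0.0581). At 3 w.p.i. a motif-bearing Pu.1 site at the other end of the same stretch (chr4:126014351-126015100) had 59.9 and 51.1 against 31.3 and 38.4 (log2 ratio 0.67, limma adjusted p = 0.157). H3.3 at this gene was gained at 5 of 5 sites at 3 w.p.i. (all sites 59.4%) and at 1 of 8 at 24 w.p.i. (all sites 52.6%). limma called 0 of the 5 and 2 of the 8 (0% and 36.5% of all sites). The mice of the 2 times were different. Of 3 overlapping pairs of the 2 times, 1 was gained at both and 2 were gained and then lost. The largest H3.3 difference at 24 w.p.i. was a loss over exons 13 to 14 (chr4:126039401-126040050), with 8.83 and 0 against 49.8 and 120.3 (log2 ratio -4.27, limma adjusted p = 0.059).

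**Figure D4:**
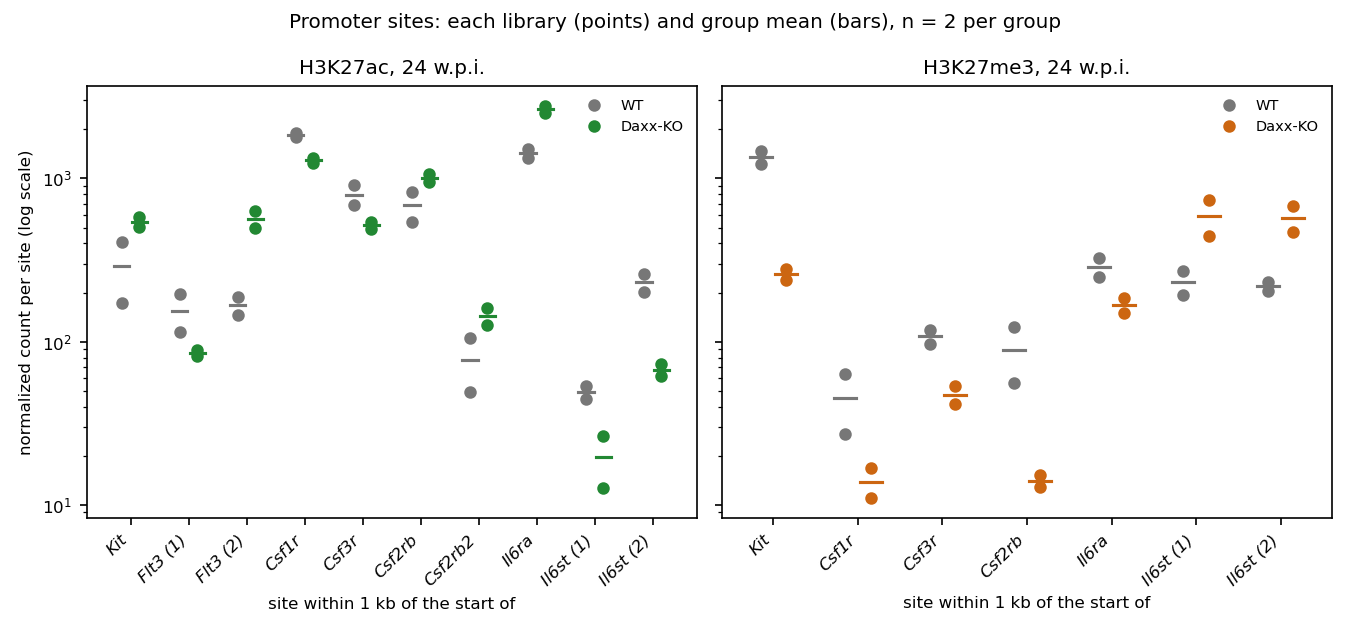
Normalized count per site (y axis, log scale) of each library at the listed H3K27ac (left) and H3K27me3 (right) sites within 1 kb of a receptor start at 24 w.p.i., WT in grey and Daxx-KO in colour, with group means as bars (n = 2 per group). H3K27me3 is lower in Daxx-KO at Kit, Csf1r, Csf3r, Csf2rb and Il6ra and higher at both Il6st sites.

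Csf2rb and Csf2rb2, the shared and the IL-3-specific beta chain, lie head to head about 20 kb apart, so their windows share the stretch between them. H3K27me3 at 24 w.p.i. was lost at all 13 sites of Csf2rb and at 5 of 6 sites of Csf2rb2, each called by limma. Of all listed H3K27me3 sites 41.2% were gained, and limma called 89.8%. The start of Csf2rb (chr15:78325251-78326450) had 15.2 and 12.9 in Daxx-KO against 123 and 55.7 in WT (log2 ratio -2.67, limma adjusted p = 0.0208). H3K27ac at the same start (chr15:78325201-78326400) was 953 and 1057 against 825 and 542 (log2 ratio 0.56, limma adjusted p = 0.065). Just inside Csf2rb2 (chr15:78304001-78305050) H3K27ac was 160.3 and 125.9 against 105 and 49.1 (log2 ratio 0.89, limma adjusted p = 0.0767). The groups did not overlap at either site, and limma called neither. Between the genes (chr15:78320451-78323000) 935 and 1171 stood against 593 and 756 (log2 ratio 0.64, limma adjusted p = 0.046), and downstream of Csf2rb (chr15:78368351-78370650) 733 and 1001 stood against 338 and 393 (log2 ratio 1.24, limma adjusted p = 0.0324).

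At 3 w.p.i. H3K27ac at the pair was split, with 5 gained and 5 lost sites in the window of Csf2rb and 2 gained and 6 lost in that of Csf2rb2. Between the genes (chr15:78318151-78319050) Daxx-KO had 50.4 and 63.7 against 29 and 19.9 (log2 ratio 1.22, limma adjusted p = 0.0386), and downstream of Csf2rb2 (chr15:78276351-78277400) 8.72 and 8.5 stood against 50.5 and 35.3 (log2 ratio -2.32, limma adjusted p = 0.0138). H3.3 at the Csf2rb start was 21.3 and 11.8 in Daxx-KO against 51.2 and 78.6 in WT at 3 w.p.i. (chr15:78325101-78325850, log2 ratio -1.97, limma adjusted p = 0.101) and 62.9 and 70.2 against 16.6 and 0.94 at 24 w.p.i. (chr15:78325501-78326700, log2 ratio 2.92, limma adjusted p = 0.0751). The direction was opposite at the 2 times, and neither passed limma's threshold.

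The last exon of Csf2rb was listed as a gained Pu.1 site at both times. At 3 w.p.i. (chr15:78348401-78349400) it had 115 and 57.6 in Daxx-KO against 31.3 and 12.8 in WT (log2 ratio 1.97, limma adjusted p = 0.0881), and at 24 w.p.i. (chr15:78348051-78349000) 217 and 122 against 25.9 and 56.8 (log2 ratio 2.03, limma adjusted p = 0.0394). The matching exon of Csf2rb2 at 3 w.p.i. (chr15:78283951-78285000) had 86.6 and 141 against 44.4 and 32 (log2 ratio 1.58, limma adjusted p = 0.0881), and it shares the 60 bases shown above. Pu.1 at 24 w.p.i. was lost at 7 of 10 Csf2rb2 sites. Over exons 5 to 6 (chr15:78292451-78293300) both Daxx-KO libraries were at 0 against 43.2 and 44.2 in WT (limma adjusted p = 4.82e-05), and downstream (chr15:78280701-78281450) 1.36 and 0 stood against 89.2 and 84.2 (limma adjusted p = 0.00907).

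Il6ra, the IL-6-binding chain, had its largest H3K27ac difference at the start (chr3:89912251-89913500), where Daxx-KO had 2790 and 2510 against 1511 and 1331 in WT at 24 w.p.i. (log2 ratio 0.90, limma adjusted p = 0.0324). H3K27me3 over the start (chr3:89912101-89913700) was 184 and 149 against 248 and 326 (log2 ratio -0.78, limma adjusted p = 0.0261), and Pu.1 just inside it (chr3:89912101-89912900) was 69.5 and 41.8 against 2.88 and 7.37 (log2 ratio 3.44, limma adjusted p = 0.0616). Over the whole window H3K27ac was lost at 13 of 20 sites and H3K27me3 gained at 6 of 10. A Pu.1 site downstream of the gene (chr3:89853051-89855250) had 241 and 177 against 11.5 and 29.5 (log2 ratio 3.35, limma adjusted p = 0.00899). Over the last exon (chr3:89867051-89867700) Pu.1 was 43.6 and 52.2 in Daxx-KO and 0 in both WT libraries, at least 12.8-fold higher with WT set at 3 reads per library (limma adjusted p = 6.91e-05). Upstream of the gene (chr3:89920851-89921750) H3.3 was 128 and 67.9 against 0 and 0, at least 35.1-fold higher (limma adjusted p = 0.00114).

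In DKO at 8 w.p.i. H3K27me3 at the Il6ra start (chr3:89911351-89913300) was 348, 61.1 and 22.9 against 48.1, 36.2 and 44.7 in WT. The groups overlapped and DKO replicate 1 decided the direction: the log2 ratio was 1.74 with it and -0.034 without it (limma adjusted p = 0.226 with all libraries).

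Il6st, the shared signalling chain gp130, was the only one of the 8 genes without a gained H3K27ac site, at 3 or at 24 w.p.i., a count for which no test was made. At 24 w.p.i. H3K27ac was lost at all 19 listed sites, 16 of them called by limma, with log2 ratios from -4.47 to -1.16 (pseudocount 1), and none of the 19 changed direction with libraries at equal mean reads. At 3 w.p.i. all 4 sites were lost as well. Of all listed H3K27ac sites 41.5% were gained at 3 w.p.i. and 42.5% at 24 w.p.i., where limma called 58.2%. Behind the start (chr13:112464201-112465700) the Daxx-KO libraries had 73.4 and 61.5 against 260.3 and 201.7 in WT at 24 w.p.i. (log2 ratio -1.78, limma adjusted p = 0.0324). Just upstream of it (chr13:112463051-112463650) 12.7 and 26.4 stood against 44.7 and 53.8 (log2 ratio -1.33, limma adjusted p = 0.0578). In intron 1 at 3 w.p.i. (chr13:112465451-112466500) the values were 0 and 0.85 against 23.6 and 22.1 (limma adjusted p = 0.00862), and far downstream at 24 w.p.i. (chr13:112529401-112530550) 170.1 and 76.1 against 374 and 377 (log2 ratio -1.61, limma adjusted p = 0.0337).

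**Figure D5:**
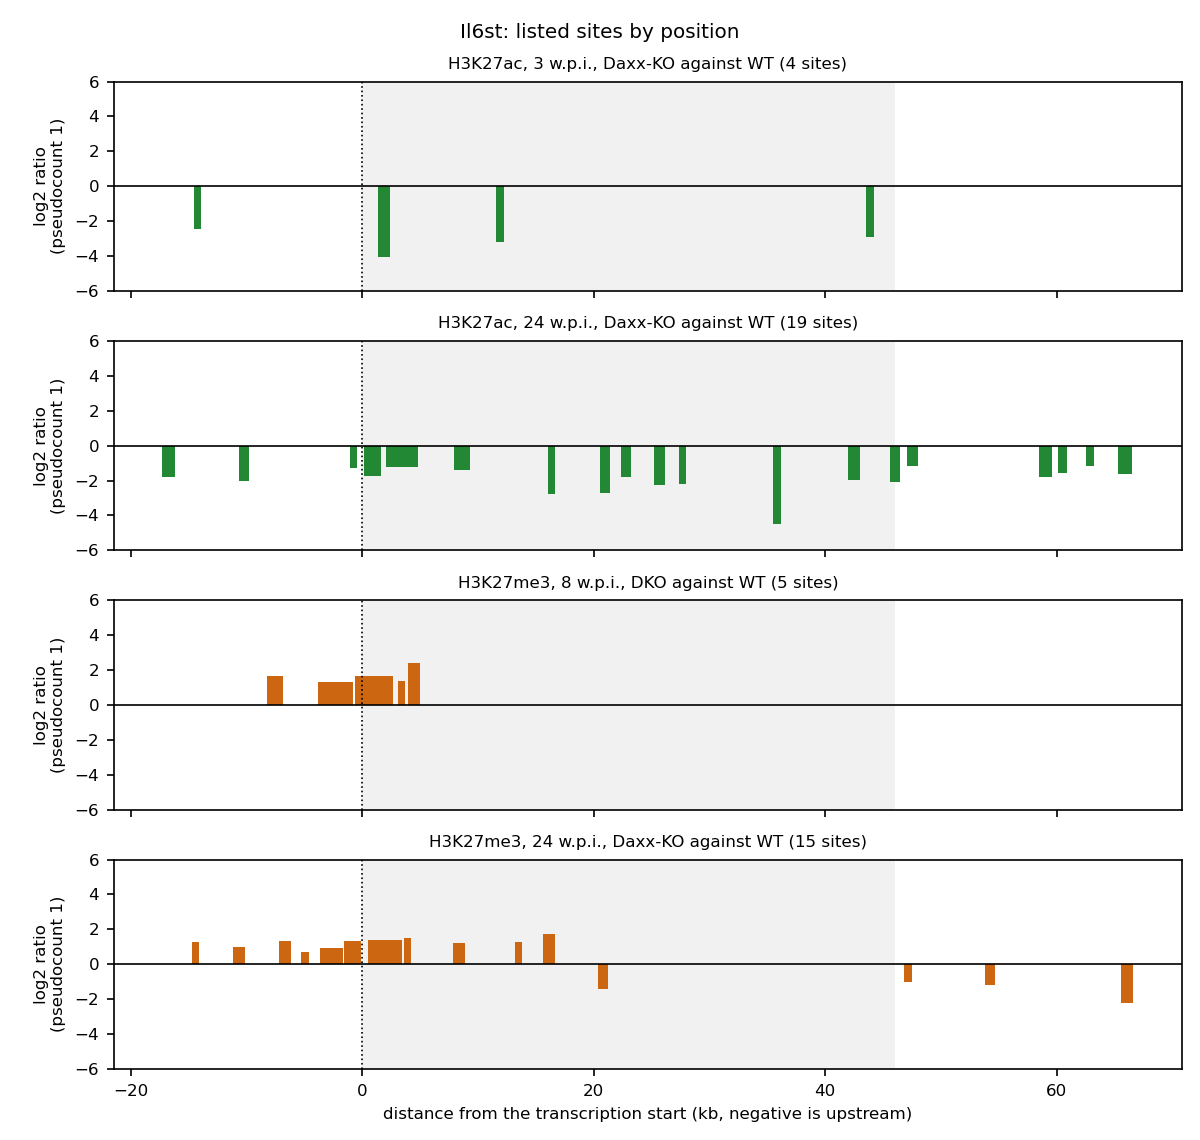
Listed H3K27ac and H3K27me3 sites of Il6st by distance from the transcription start (x axis, kb, shaded over the gene) and log2 ratio of the group means with a pseudocount of 1 (y axis). H3K27ac sites are all lost in Daxx-KO at both times (4 and 19 sites), and H3K27me3 sites from 14.7 kb upstream to 16.7 kb downstream of the start are gained at 24 w.p.i. (11 sites).

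H3K27me3 at Il6st went the other way around the start, whose upstream bases are printed above. At 24 w.p.i. 11 sites between 14.7 kb upstream and 16.7 kb downstream of the start were gained. The 4 sites beyond 20.4 kb were lost. All 15 were called by limma, as were 89.8% of all H3K27me3 sites, of which 41.2% of those listed were gained. Upstream of the start (chr13:112462451-112463950) the Daxx-KO libraries had 741 and 442 against 193 and 273 (log2 ratio 1.34, limma adjusted p = 0.0211). Behind it (chr13:112464551-112467500) 676 and 469 stood against 232 and 206 (log2 ratio 1.39, limma adjusted p = 0.0208). Where H3K27ac and H3K27me3 sites overlapped, 7 of 10 pairs were lost for H3K27ac and gained for H3K27me3. At every other gene with listed H3K27me3 sites within 1 kb of its start at 24 w.p.i. (Kit, Csf1r, Csf3r, Csf2rb and Il6ra), those sites were lost. Gains near a start were not limited to Il6st. Flt3, with no listed site that near, had 6 gained and 14 lost H3K27me3 sites. Its gained sites began 4.41 kb upstream of the start, and one overlapped the gained H3K27ac site at the start.

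DKO cells at 8 w.p.i. also held more H3K27me3 around the Il6st start, at 5 of 5 listed sites against WT. The site over the start (chr13:112463451-112466750) had 413, 192 and 179.8 in DKO against 83.1, 71.6 and 87.2 in WT (log2 ratio 1.699, limma adjusted p = 0.00746). Next to it upstream (chr13:112460251-112463300) 140.4, 127 and 137 stood against 56, 49.8 and 53.7 (log2 ratio 1.34, limma adjusted p = 0.00652). Against Daxx-KO, DKO gained 3 of 3 sites, among them one 2.4 kb upstream (chr13:112460201-112461650) with 87.9, 51.3 and 70.7 against 33.8, 29.4 and 30.3 (log2 ratio 1.17, limma adjusted p = 0.0221). At each of these sites the lowest DKO library exceeded the highest library of the other group. The DKO libraries are the same in both comparisons, and DKO lack Daxx as well as Pu.1. At equal mean reads DKO values for H3K27me3 change by -0.28 (log2) relative to WT and -0.34 relative to Daxx-KO. The ratios at these Il6st sites are then smaller, and all of the sites stayed gained.

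Over the 8 genes, H3K27me3 in DKO at 8 w.p.i. was gained at 8 of 11 sites against WT (72.7%, all sites 56.1%) and at 4 of 11 against Daxx-KO (36.4%, all sites 65.3%). Il6st gave 5 of the 8 and 3 of the 4 gains. H3K9me3 changes at the receptor genes were few before 24 w.p.i. At 3 w.p.i. 2 of 2 sites were gained (all sites 78.9%), and at 8 w.p.i. 1 of 2 in Daxx-KO against WT (all sites 65.2%), 2 of 2 in DKO against WT (all sites 81.4%) and 0 of 1 in DKO against Daxx-KO (all sites 73.4%). Besides those at Flt3, the sites were as follows. H3K9me3 was gained downstream of Csf2rb at 3 w.p.i. (chr15:78360851-78361850), with 27.9 and 10 against 1.75 and 2.9 (log2 ratio 3.03, limma adjusted p = 0.0187), and in DKO against WT about 1 kb away (chr15:78359751-78360400), with 19.4, 6.91 and 12.3 against 0.9, 0 and 2.86 (log2 ratio 3.36, limma adjusted p = 0.016). Upstream of Il6st (chr13:112448851-112449600) DKO had 8.62, 13.8 and 21.5 against 0, 6.4 and 5.01 in WT (log2 ratio 1.94, limma adjusted p = 0.0801). At equal mean reads DKO values for H3K9me3 change by -0.91 (log2) relative to WT. The gains in DKO against WT are then smaller, and both kept their direction. In intron 13 of Kit (chr5:75644801-75645400), a site wholly within repeats, Daxx-KO had 0, 1.84 and 0 against 3.95, 16.9 and 7.49 in WT (log2 ratio -3.94, limma adjusted p = 0.000554).

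At 24 w.p.i. each of the 8 genes had between 1 and 6 gained H3K9me3 sites. Among the largest gains, Daxx-KO replicate 2 stood well above replicate 1. Over exons 18 to 20 of Csf1r (chr18:61128651-61129800) Daxx-KO had 38.3 and 138 against 3.11 and 3.75 (log2 ratio 4.68, limma adjusted p = 0.0328), downstream of Flt3 (chr5:147314751-147316000) 48.5 and 135.5 against 6.22 and 5.62 (log2 ratio 3.96, limma adjusted p = 0.0299), and downstream of Csf2rb (chr15:78364851-78366000) 43.4 and 162 against 12.4 and 0 (log2 ratio 4.04, limma adjusted p = 0.0455). At the Kit start (chr5:75574501-75575550), where H3K27ac was higher and H3K27me3 lower, H3K9me3 was 42.1 and 75 against 18.7 and 1.87 (log2 ratio 2.51, limma adjusted p = 0.0568). Daxx-KO replicate 2 had 9.11 reads per window and replicate 1 7.26. After division by the constants, the mean normalized count per window was 9.49 in Daxx-KO replicate 2 and 4.62 in replicate 1. WT replicates 1 and 2 had 8.78 and 4.88. Replicate 2 of Daxx-KO was thus higher across windows in general, and the part of depth and constants in these gains was not tested.

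Pu.1 and H3K27ac sites of the 8 genes overlapped in 55 pairs at 24 w.p.i., of which 26 had the same direction (47.3%, all pairs 50.1%), and in 14 pairs at 3 w.p.i., of which 7 did (50%, all pairs 45.2%). Pu.1 sites met a listed H3K27ac site in 54.9% of cases at the receptor genes at 24 w.p.i., against 22.7% of all Pu.1 sites. With H3.3, Pu.1 sites shared the direction in 15 of 22 pairs at 3 w.p.i. (68.2%, all pairs 77.8%) and in 16 of 32 at 24 w.p.i. (50%, all pairs 50.5%). H3.3 and Pu.1 libraries at 3 w.p.i. came from the same mice where the labels number them, which they do not for WT replicate 1. Daxx-KO libraries for Pu.1 and H3K27ac at 3 w.p.i. came from different mice, while WT replicate 2 was the same mouse for both. At 24 w.p.i. the libraries for Pu.1, H3K27ac and H3.3 came from the same mice, so the pairs of the 2 times are not alike in this. H3.3 sites of the 2 times kept their direction in 13 of 24 pairs (54.2%, all pairs 51.2%) and Pu.1 sites in 13 of 23 (56.5%, all pairs 48.1%).

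Other genes of the same pathways, each with the same 20 kb on either side, moved as follows in Daxx-KO. At 3 w.p.i. H3K27ac was gained at 11 of 31 sites of ligand genes (35.5%) and 16 of 44 of other receptors (36.4%). It was gained at 55 of 137 sites of kinases and transducers (40.1%) and 32 of 82 of inhibitors (39%). The share of all sites was 41.5%, so these were near it or below. At 24 w.p.i. the counts were 38 of 74 (51.4%), 50 of 97 (51.5%), 112 of 298 (37.6%) and 75 of 163 (46%). These lay on both sides of the 42.5% of all sites. H3K27me3 at 24 w.p.i. was gained at 17 of 69 ligand sites, 32 of 91 sites of other receptors, 10 of 48 sites of kinases and transducers and 8 of 80 sites of inhibitors (24.6%, 35.2%, 20.8% and 10%, against 41.2% of all sites). Among the inhibitors, all H3K27me3 sites of Socs1, Cbl, Cblb and Ptpn6 were lost.

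Markers of cell types that lineage depletion and c-Kit selection may leave moved with the genotype for H3K27ac in some lists and times but not in others. Their part in the results above was not tested. Of all listed H3K27ac sites 41.5% were gained at 3 w.p.i. and 42.5% at 24 w.p.i. Neutrophil markers (S100a8, S100a9, Ly6g, Elane and Mpo) had 19 of 26 sites gained at 3 w.p.i. and 51 of 55 at 24 w.p.i., where the summed count of their listed sites came to 44962 and 45321 in the Daxx-KO libraries against 22297 and 24634 in the WT ones. Stem and progenitor markers (Kit, Cd34, Myb, Gata2, Meis1 and Spi1) had 60 of 85 and 73 of 124 gained, with sums of 44074 and 42297 against 28737 and 26373 at 24 w.p.i. A large part of these sums came from Spi1, the gene of Pu.1. A single Spi1 site (chr2:91080301-91085200) gave 15111 and 13801 against 8985 and 8601, and another (chr2:91085851-91089750) 5651 and 5719 against 3158 and 3462. Monocyte markers (Csf1r, Ly86 and Irf8) had 9 of 24 and 26 of 69 gained, with sums of 6801 and 8195 against 9831 and 9088 at 24 w.p.i. Csf1r gave 8 of the 15 sites lost at 3 w.p.i. and 18 of the 43 lost at 24 w.p.i. This list is thus not independent of the Csf1r result above. Erythroid markers had 0 of 13 gained at 3 w.p.i. (sums of 97.9 and 64.6 against 307 and 505) and 5 of 14 at 24 w.p.i. Gained sites of B cell markers were 6 of 14 (42.9%) and 26 of 44 (59.1%). They were 2 of 14 (14.3%) and 12 of 36 (33.3%) for T cell markers. Mast cell or basophil markers had 13 of 17 (76.5%) and 8 of 20 (40%). Summed counts overlapped between the groups for B cell markers (219 and 286 against 221 and 256) and monocyte markers (527 and 736 against 506 and 577) at 3 w.p.i. They also did at 24 w.p.i. for T cell markers (4972 and 4624 against 4746 and 4900) and erythroid markers (1729 and 1314 against 1369.5 and 1468). In the other lists and times they did not overlap. The groups do not overlap at 97.6% (3 w.p.i.) and 97.3% (24 w.p.i.) of all listed H3K27ac sites. Separate sums are therefore the rule and no evidence on the cell types. All markers had a listed H3K27ac site except Gata1 at 24 w.p.i., where X and Y were left out by the authors, and markers without a change between groups would not be in these tables.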

How the data were processed

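CUT&Tag libraries of HSPCs were compared by the authors with diffReps 1.55.6 on mm10 (600-bp windows, 50-bp steps, fragment size of 100 bp, negative binomial test, window cutoff of 0.0001). The submitters' processing notes also name CASAVA 1.8.4, cutadapt 1.13, STAR 2.5.3 and bedtools. Each deposited cell joins the normalized counts of the libraries of a group, made by the authors as reads divided by a constant, and 100% of values came out as whole reads within 0.05. The authors' group means, events, log2 fold changes and p-values were not used, and reads on X and Y had been left out at 24 w.p.i. The table labelled H3K27me3 in Daxx-KO against WT at 8 w.p.i. was left out because its header names H3K9me3 libraries as controls. Of 62 libraries, 54 are in the tables used, from which the 8 DKO libraries at 24 w.p.i. are missing.

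Genes were taken from GENCODE M21 with 20 kb on either side, and promoter sites lay within 1 kb of the start of the principal transcript. The receptor genes and all lists were chosen with earlier results of these data known. Named sites were promoter sites, the site with the largest difference in group means per gene, target and time among those whose libraries did not overlap, the same per direction at 8 w.p.i., Pu.1 sites overlapping H3K27ac or H3.3 sites, and Pu.1 sites with the motif. Log2 ratios are of group means without a pseudocount unless stated. limma 3.58.1 in R 4.3.3, tested on simulated data, was fitted to log2(normalized count + 1) over all listed sites of a table with Benjamini-Hochberg adjustment. A bound sets a group with no reads at 3 reads per library. The files turned out to hold several libraries per cell, so no count model was fitted. Replicate numbers do not pair mice of different genotype. Numbered mice differ between the libraries of a group and target. Depth is given as mean reads per window from the file headers. CpG, motif and repeat letters were read from RefSeq promoters and the GRCm38 genome. Python 3.11.15 with pandas 2.3.3 was used.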

Additional observations from a re-analysis of the deposited data

Results flagged for a closer look

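Overlapping sites of the same target had opposite directions at 3 and 24 w.p.i. in 11 pairs for H3.3, 10 for Pu.1 and 24 for H3K27ac. The 4 pairs given here are those in which both sites lay at a gene start or had the largest difference of their gene, target and time, libraries did not overlap between groups and no group was at 0. They are not the pairs with the largest change, since Pu.1 downstream of Il6ra, chosen after its values were seen, had log2 ratios of -2.17 and 3.35. In each case the difference between the times was not tested. For H3.3 at the Csf2rb start, in the window of both Csf2rb and Csf2rb2, the log2 ratio of Daxx-KO to WT was higher by 4.89 at 24 w.p.i. than at 3 w.p.i. (-1.97 and 2.92). For H3.3 behind the Csf1r start it was higher by 4.16 (-1.71 and 2.45). For Pu.1 about 3 kb upstream of Flt3 the log2 ratio at 24 w.p.i. minus that at 3 w.p.i. was -4.28 (1.48 and -2.80). For H3K27ac over the first part of Csf1r it was -1.47 (0.95 and -0.52), where the value at 24 w.p.i. became 0.048 with libraries scaled to equal mean reads per window. Mice and libraries of the 2 times are different, WT libraries for H3.3 and Pu.1 at 3 w.p.i. stood apart in depth (22.88 and 3.06, and 33.78 and 2.75 reads per window), and the part of depth was not tested.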

How the results depend on the processing

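The share of gained receptor sites stayed within its 95% interval under 176 of 182 alternatives (other flanks, merged sites, a minimum of 20 in the higher group, an absolute log2 ratio of at least 1, groups that do not overlap, each library left out, limma calls with and without a replicate block, equal mean reads), and 10 further alternatives left no site. Many of these alternatives could hardly move the share. Leaving out a library cannot turn a site whose groups do not overlap, and intervals of few sites are wide (34.2 to 100% for 2 of 2). With gene bodies alone the share was 76.9% for Pu.1 and 74.5% for H3K27ac at 3 w.p.i., 0% (0 of 1) for H3K9me3 at 8 w.p.i. in Daxx-KO against WT and 88.2% for H3K9me3 at 24 w.p.i. With 50 kb on either side it was 67.7% (21 of 31) for H3K27me3 in DKO against Daxx-KO, so that low share rests on the 20-kb windows. Of the H3.3 sites at 3 w.p.i. that limma called with a replicate block, 85.7% (6 of 7) were gained. Leaving out a library in turn gave 63.6 to 72.7% for H3K27me3 in DKO against WT, 36.4 to 45.5% against Daxx-KO, 57.3 to 60.4% for H3.3 at 24 w.p.i., 66.7 to 68.1% for H3.3, 64.9 to 66.2% for Pu.1 and 60 to 62.4% for H3K27ac at 3 w.p.i., 50.5 to 51.6% for Pu.1 and 41.5 to 42.6% for H3K27ac at 24 w.p.i., and no change for the others. Of 681 alternatives for 97 named sites, 574 left the value within the replicate spread, 104 moved it and 3 turned it: H3K27ac at the Kit start at 3 w.p.i. (-2.72 to 0.26 with a library left out, the latter without WT replicate 2), H3K27ac at the Csf1r start at 24 w.p.i. (0.048 at equal mean reads) and H3K27me3 at the Il6ra start in DKO (-0.034 to 2.25 with a library left out, the former without DKO replicate 1). The replicate block called 17.1% of all listed H3.3 sites and 0.00931% of Pu.1 sites at 3 w.p.i., where the fit without it called none. Same-numbered libraries come from different mice and their deviations correlated between -0.0946 and 0.147, so the numbers are only names. The planned count models with the authors' constants, with another scaling and with a replicate block were not run, because a cell joins several libraries. The equal-depth scaling and both limma fits were chosen after seeing the data. Depth limits both H3K9me3 comparisons with DKO at 8 w.p.i., where 1 DKO library had 0.2 to 0.21 and another 0.67 to 0.69 reads per window.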
